A study of Homo sapiens with 24 samples.

Results

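The NF-κB subunits and their feedback inhibitors are 10 genes chosen by symbol as a named list: the subunits NFKB1, NFKB2, RELA, RELB and REL, and the inhibitors NFKBIA, NFKBIE, NFKBIZ, BCL3 and TNFAIP3. They are 10 of the 39321 genes in the deposited count table, and each symbol matched 1 gene. The study sequenced RNA in 24 libraries from A498 and 786-O, human lines that were established from kidney cancer of the clear cell type. In each line, cells received 20 nM of a control siRNA (Cnsi) or of an siRNA to PD-L1 (PD-L1si) for 24 h and then either no cytokine or 50 ng/mL of interferon gamma (IFNγ) for 24 h. This gave 4 groups of 3 libraries per line, named Cnsi and PD-L1si without the cytokine and Cnsi+IFNγ and PD-L1si+IFNγ with it. The sample labels call the PD-L1 groups a knockout, whereas the protocols describe an siRNA, and they are read here as siRNA.

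Total counts per library ran from 19256316 to 27907526 in the A498-labelled libraries and from 26807875 to 30350461 in the 786-O-labelled libraries. The sample labels and the comparison tables supplied with the study appear to attach the names of the lines to opposite sets of libraries, so each set is called by its sample label. Line and sequencing instrument cannot be told apart. In the 786-O-labelled libraries 1475 genes with over 1000 summed counts in the A498-labelled libraries stood at 0 in every library, against 35 genes the other way round. REL and NFKBIA were among those at 0, so they were not measured in the 786-O-labelled libraries, where 8 members remained. Nothing in the labels says that replicates were separate cultures, so the p-values measure only the spread between these libraries. In bulk RNA a change in the share of responding cells and a change in RNA per cell cannot be told apart.

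NF-κB is a family of dimeric transcription factors that IκB proteins hold in the cytoplasm until an upstream kinase complex marks the IκB proteins for destruction. RELA, with the product of NFKB1, carries the canonical arm, whereas RELB, with the product of NFKB2, carries the noncanonical arm that the kinase MAP3K14 drives. The released dimers switch on genes for several of their own subunits and inhibitors, which makes those transcripts both parts and readouts of the pathway, and inflammatory signalling of this kind is a known feature of renal carcinoma cells.

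The treatment labels were checked on CD274, which encodes PD-L1, and on the interferon-induced gene IRF1. Levels are in CPM, counts scaled to a common library size after TMM normalization, and values after ± are SDs of n = 3 libraries unless marked as standard errors (SE). CD274 in the A498-labelled libraries stood at 3.99, 5.49 and 5.74 CPM in Cnsi, 191, 199 and 191 in Cnsi+IFNγ, 0.810, 1.01 and 0.926 in PD-L1si and 26.9, 28.5 and 27.7 in PD-L1si+IFNγ. In the 786-O-labelled libraries it stood at 3.87, 4.18 and 4.18, 55.7, 59.6 and 65.8, 1.46, 1.21 and 1.90 and 32.7, 30.8 and 30.6 CPM in the same order. No library of any PD-L1si group reached the lowest Cnsi library with the same cytokine treatment. Under IFNγ, PD-L1si lowered CD274 by a log2 fold change of -2.81 ± 0.05 (SE, edgeR adjusted p = 1.6e-29) in the A498-labelled libraries and of -0.94 ± 0.07 (SE, edgeR adjusted p = 6.7e-10) in the 786-O-labelled libraries. IRF1 rose with IFNγ in Cnsi cells from 58.7 ± 2.17 to 1445 ± 25.6 CPM and from 38.5 ± 0.706 to 1053 ± 66.0 CPM in the respective sets, with no overlap. It was lower with PD-L1si without IFNγ in the A498-labelled set, at 32.4 ± 0.793 CPM (log2 fold change -0.86 ± 0.05 (SE), edgeR adjusted p = 5.1e-17), while in the 786-O-labelled set its log2 fold change was 0.08 ± 0.05 (SE) and it was not called. The kidney carcinoma markers PAX8, PAX2, CA9, KRT8, KRT18 and VIM summed to 3723 to 4369 CPM in the A498-labelled libraries without IFNγ and to 4537 to 5462 CPM in those with it. With PAX2 at 0 and so not measured in the 786-O-labelled libraries, the other 5 summed to 3689 to 4124 CPM without IFNγ and to 5484 to 6405 CPM with it. The sums were thus higher with IFNγ in both sets, without overlap. In the A498-labelled set they were also lower with PD-L1si without overlap, at 3723 to 3896 against 4192 to 4369 CPM without IFNγ. With IFNγ they were 4537 to 4643 against 5373 to 5462 CPM. In the 786-O-labelled set they were lower with PD-L1si under IFNγ, at 5484 to 5768 against 5935 to 6405 CPM, and overlapped without it. The part of these shifts in the results was not tested. VIM was the most abundant of them in every library but replicate 1 of the 786-O-labelled Cnsi+IFNγ group, where KRT8 was. VIM averaged 3791 CPM over the A498-labelled and 2061 CPM over the 786-O-labelled libraries, and KRT8 411 and 1833 CPM. In the same order KRT18 averaged 133 and 742 CPM, PAX8 147 and 229 CPM and CA9 1.18 and 17.1 CPM. PAX2 averaged 35.9 CPM in the A498-labelled libraries. The sums thus say little about CA9. Single markers did not all move with the sums. Of 6 tested in the A498-labelled set, IFNγ called 1 higher and 0 lower in Cnsi cells and 0 higher and 2 lower in PD-L1si cells. Of 5 in the 786-O-labelled set, it called 3 higher and 1 lower in Cnsi cells and 1 and 1 in PD-L1si cells. Among all genes the shares were 18.2% and 18.5%, 17.6% and 15.9%, 11.1% and 7.39%, and 11.0% and 7.45%. In A498-labelled PD-L1si cells the lower call of CA9 with IFNγ (-0.54) was lost without replicate 1 (-0.38) or 2 (-0.51) of PD-L1si. It was also lost without replicate 1 of PD-L1si+IFNγ (-0.48). Of the leukocyte markers, PTPRC reached at most 0.0484 CPM in any A498-labelled and 0.107 CPM in any 786-O-labelled library. CD14 reached at most 0.253 and 0.583 CPM and LYZ at most 0.126 and 0.137 CPM. PTPRC, CD14 and LYZ were thus near 0 in both sets. CD3D was at 0 and so not measured in the 786-O-labelled libraries, and CD3E and FCGR3A had no matching gene in the table.

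Promoter sequences were taken from RefSeq on build GRCh38.p14, as windows of 300 bases from 250 before to 50 after a start site. They held 8 of the 10 members in 13 windows, without RELB and NFKBIE. Both strands were searched for the κB consensus of 10 bases, the element NF-κB dimers bind, and for the GAS element TTCNNNGAA, an element of genes that IFNγ activates. The κB consensus occurred in 9 of the 13 windows and in 7 of the 8 members (87.5%), against 11.3% of the 35116 windows in the table and 13.3% of the symbols. GAS occurred in 1 of the 8 members (12.5%), against 7.66% of all windows and 9.38% of symbols, and no member window held both elements. On GRCh38 TNFAIP3 (ENSG00000118503.15) lies at chr6:137867214-137883314, NFKB2 (ENSG00000077150.20) at chr10:102394110-102402524, NFKBIA (ENSG00000100906.10) at chr14:35401079-35404749 and RELA (ENSG00000173039.19) at chr11:65653599-65663090. The windows of TNFAIP3, NFKB2 and NFKBIA are printed because these genes fell with PD-L1si both with and without IFNγ in the A498-labelled libraries, and that of RELA because it alone among the member windows held GAS. RELA had 2 windows, and the printed one lies outside the gene span given here, while the other, which spans the annotated gene start, held no GAS match. NFKB2 had 3 windows, of which the one that spans its annotated gene start held no κB match, the printed one 3 and the last 2. Each is written 5′ to 3′ on the strand of the gene, with capitals for κB matches in the first 3 and for the GAS match in the last. A match is a description of letters and not a site.
TNFAIP3, chr6:137867009-137867308, plus strand: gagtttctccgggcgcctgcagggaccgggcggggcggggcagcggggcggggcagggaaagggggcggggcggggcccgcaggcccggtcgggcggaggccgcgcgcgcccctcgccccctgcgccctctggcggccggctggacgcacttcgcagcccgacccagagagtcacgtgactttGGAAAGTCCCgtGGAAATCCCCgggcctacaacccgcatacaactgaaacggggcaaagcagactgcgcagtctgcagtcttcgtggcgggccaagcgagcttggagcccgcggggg
NFKB2, chr10:102394328-102394627, plus strand: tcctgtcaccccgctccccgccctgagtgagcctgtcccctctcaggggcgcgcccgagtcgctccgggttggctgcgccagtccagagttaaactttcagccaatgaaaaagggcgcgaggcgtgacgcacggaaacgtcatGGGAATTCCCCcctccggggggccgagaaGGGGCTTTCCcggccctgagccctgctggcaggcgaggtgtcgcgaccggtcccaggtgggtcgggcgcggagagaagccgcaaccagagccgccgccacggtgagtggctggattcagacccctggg
NFKBIA, chr14:35404700-35404999, minus strand: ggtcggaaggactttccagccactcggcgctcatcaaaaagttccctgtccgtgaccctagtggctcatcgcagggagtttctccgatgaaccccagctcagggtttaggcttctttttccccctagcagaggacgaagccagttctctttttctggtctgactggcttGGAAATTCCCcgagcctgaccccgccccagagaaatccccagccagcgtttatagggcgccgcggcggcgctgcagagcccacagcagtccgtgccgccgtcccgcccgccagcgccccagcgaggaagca
RELA, chr11:65663808-65664107, minus strand: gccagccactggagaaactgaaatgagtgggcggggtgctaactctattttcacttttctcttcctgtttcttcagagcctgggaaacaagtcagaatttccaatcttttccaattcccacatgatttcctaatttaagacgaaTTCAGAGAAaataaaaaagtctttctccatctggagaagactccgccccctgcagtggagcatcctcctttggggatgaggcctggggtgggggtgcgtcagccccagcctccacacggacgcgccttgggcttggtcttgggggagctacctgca
TNFAIP3 held 2 matches that began at -67 and -55 from the start site. The NFKB2 window held 3, of which the pair at -107 and -106 overlapped and the other began at -78. NFKBIA held 1 at -81, and the GAS match of RELA began at -106.

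Levels of different genes were compared per length, as CPM per kilobase of exon (RPKM). In Cnsi cells of the A498-labelled set, NFKB2 was the most abundant subunit transcript at 20.3 ± 1.01 RPKM, followed by RELA at 12.3 ± 0.707, RELB at 8.44 ± 0.229, NFKB1 at 4.73 ± 0.0569 and REL at 0.707 ± 0.0398. Among the inhibitors NFKBIZ, an atypical nuclear IκB protein, led at 24.5 ± 0.773 RPKM, ahead of NFKBIA, the classical IκBα, at 20.2 ± 0.766. TNFAIP3, which encodes the ubiquitin-editing enzyme A20 that damps signalling to the upstream kinases, stood at 8.49 ± 0.391 RPKM, within the spread of RELB. In the 786-O-labelled set NFKB2 was again the most abundant subunit, and there it led all measured members, at 21.5 ± 0.248 RPKM. BCL3, an atypical IκB protein that binds NFKB1 and NFKB2 products in the nucleus, came next at 15.7 ± 0.473, and TNFAIP3 was lowest at 1.95 ± 0.0968. In Cnsi+IFNγ TNFAIP3 stood at place 3 of 10 in the A498-labelled set, against place 7 in Cnsi, and at place 5 of 8 in the 786-O-labelled set, against place 8.

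REL, whose product is mainly known from lymphoid cells, was left out of a sum over subunits because it was not measured in both sets. The summed level of the other 4 subunits in the A498-labelled libraries was 45.8 ± 0.427 RPKM in Cnsi, 113 ± 3.91 in Cnsi+IFNγ, 26.2 ± 0.987 in PD-L1si and 71.6 ± 2.59 in PD-L1si+IFNγ. In the 786-O-labelled libraries the same sum was 43.4 ± 0.317, 61.1 ± 5.36, 40.7 ± 1.58 and 54.1 ± 0.584 RPKM. The sum thus spanned a wider range in the A498-labelled set, whose PD-L1si group lay below all 3 Cnsi libraries of either set. NFKB2 held 44.3% ± 1.82 of that sum in Cnsi and 38.0% ± 0.476 in PD-L1si of the A498-labelled set, while the share of RELA was 26.9% ± 1.69 and 37.6% ± 0.572. RELB held 18.5% ± 0.574 and 13.1% ± 0.374 in the same groups. In the 786-O-labelled set these shares were 49.5% ± 0.431 and 50.0% ± 0.354 for NFKB2 and 26.7% ± 0.594 and 26.3% ± 0.216 for RELA. With the length of the longest transcript in place of the exon union, 25 of the 32 shares moved by more than 1 SD, so the shares depend on the length used. The order can depend on it too. In A498-labelled PD-L1si NFKB1 then held 15.0% and RELB 10.2%, against 11.4% and 13.1% with the exon union. RELA then held 38.0% and NFKB2 36.7% in that group. In A498-labelled Cnsi the order stayed, with RELB at 14.7% and NFKB1 at 13.9%.

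**Figure D1:**
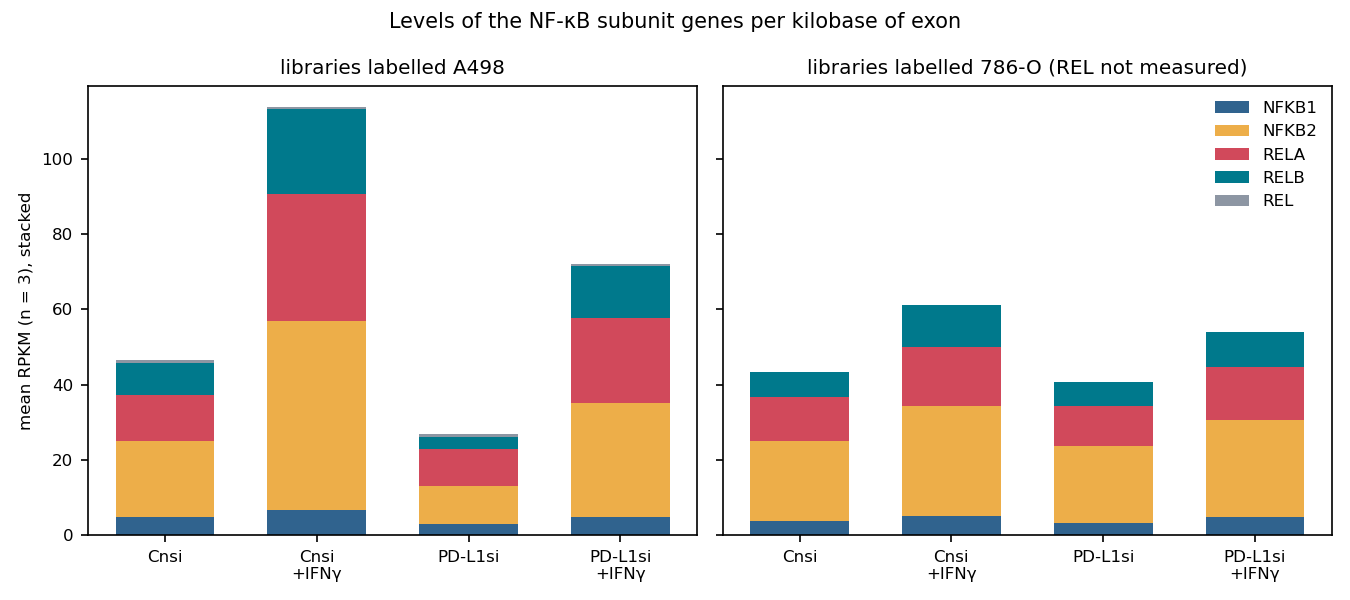
Stacked mean RPKM (n = 3) of the subunit genes in each group of the A498-labelled and 786-O-labelled libraries. The 4 subunits measured in both sets sum to 26.2 ± 0.987 RPKM (SD) in the A498-labelled PD-L1si group and to 113 ± 3.91 in Cnsi+IFNγ.

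The plot of subunit levels shows NFKB2 and RELA as the largest parts of the bar in every group. The lowest summed level is in the A498-labelled PD-L1si group. Fold changes are log2 ratios fitted by edgeR, and a gene is said to rise or fall only if it was called, at an adjusted p under 0.05 (Benjamini-Hochberg over all genes tested) and a log2 fold change beyond 0.5 in either direction. The first question was which members IFNγ moves in cells with the control siRNA. In the A498-labelled libraries 6 of the 10 members were called higher and 0 lower, against 18.2% called higher and 18.5% called lower among 20916 genes tested. At an unadjusted p under 0.05 there were 8 higher and 2 lower, and DESeq2 also called 6 and 0. The median log2 fold change of the members was 0.75, against -0.03 over all genes tested, so the members stood above the background on the higher side.

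**Figure D2:**
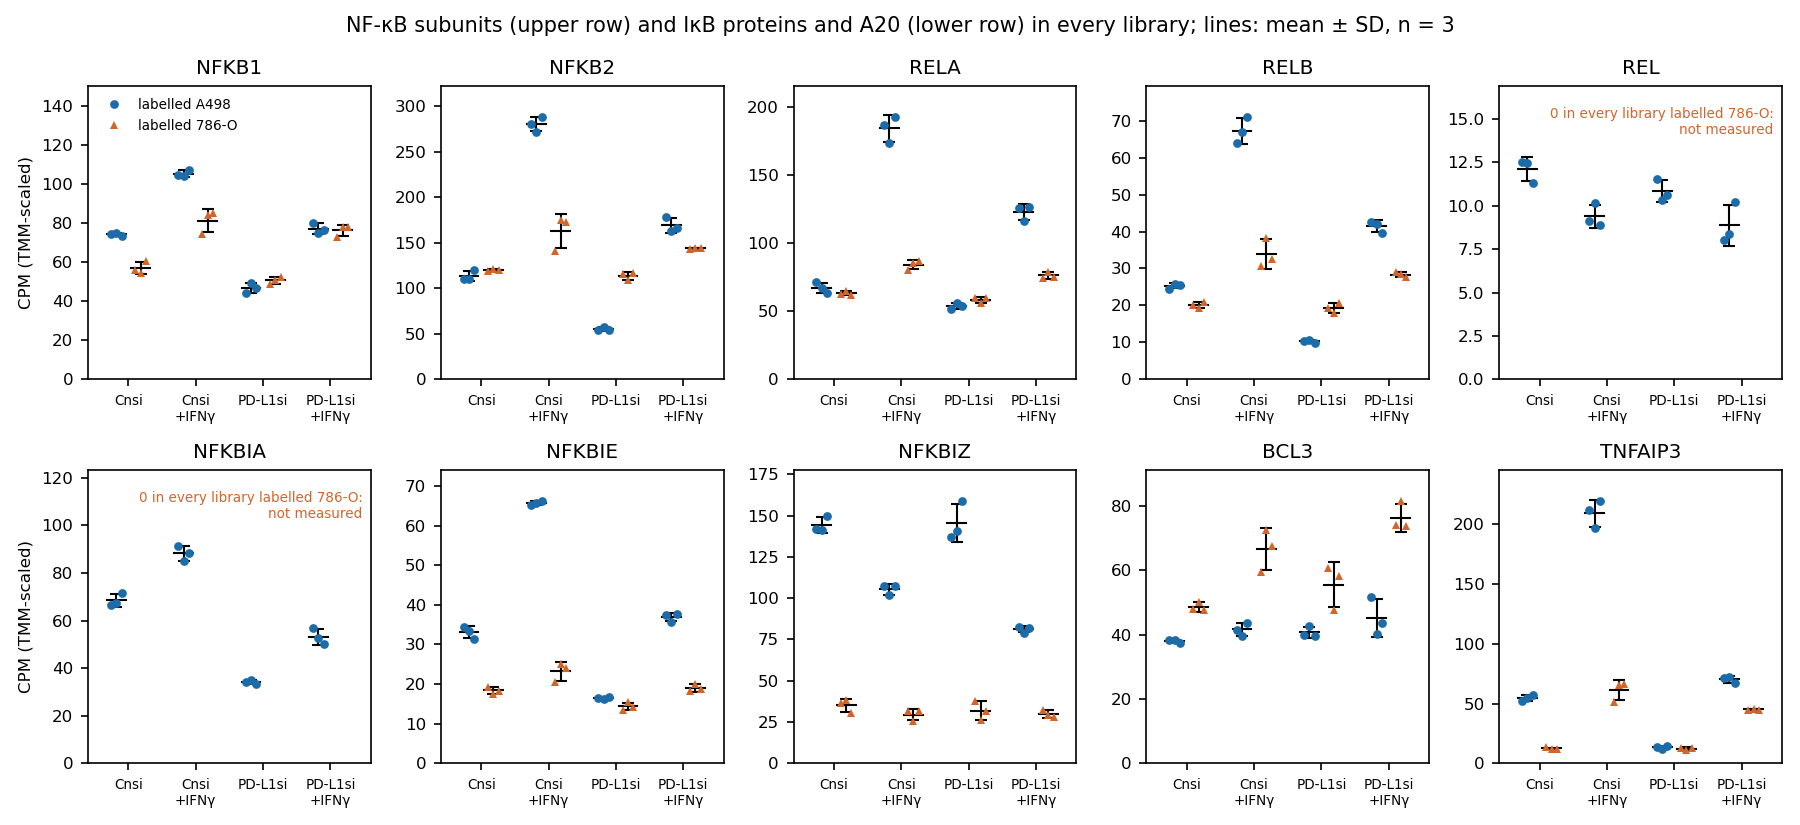
CPM of each member in every library, by group and set of libraries, with lines for the mean ± SD of n = 3. As a ratio of group means within 1 set, TNFAIP3 has the groups farthest apart, from 13.3 CPM in A498-labelled PD-L1si to 209 in A498-labelled Cnsi+IFNγ, and REL and NFKBIA have no values in the 786-O-labelled libraries.

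RELA, the transactivating subunit of the canonical dimer, stood at 71.2, 66.9 and 63.5 CPM in the A498-labelled Cnsi libraries and at 187, 173 and 192 in Cnsi+IFNγ. Every IFNγ library was above every Cnsi library. The log2 fold change was 1.45 ± 0.05 (SE, edgeR adjusted p = 3.5e-24), a ratio of 2.74. NFKB2, the precursor of the noncanonical DNA-binding subunit, went from 110.0, 109.8 and 119.6 to 281, 272 and 288 CPM without overlap, a log2 fold change of 1.31 ± 0.04 (SE, edgeR adjusted p = 5.0e-24). RELB, its partner, went from 24.6, 25.9 and 25.4 to 63.9, 66.9 and 70.9 CPM without overlap, a log2 fold change of 1.41 ± 0.05 (SE, edgeR adjusted p = 1.3e-22). These 3 subunits had rises of similar size. NFKB1, the precursor of the canonical DNA-binding subunit, stood at 74.4, 75.0 and 73.2 and then 104, 104 and 107 CPM, and its log2 fold change of 0.50 ± 0.04 (SE, edgeR adjusted p = 3.5e-12) lay just past the threshold of 0.5. REL had a log2 fold change of -0.36 ± 0.09 (SE, edgeR adjusted p = 5.5e-04) and was not called.

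Among the inhibitors, TNFAIP3 stood at 52.1, 55.0 and 57.1 CPM in Cnsi and at 212, 197 and 219 in Cnsi+IFNγ of the A498-labelled set. The groups did not overlap, and the ratio of 3.82 was the largest of any member in this comparison (log2 fold change 1.93 ± 0.05 (SE), edgeR adjusted p = 6.1e-28). NFKBIE, which encodes IκBε, went from 34.4, 33.4 and 31.4 to 65.2, 65.7 and 66.1 CPM without overlap, a log2 fold change of 0.99 ± 0.05 (SE, edgeR adjusted p = 3.7e-19). NFKBIA went from 66.6, 67.5 and 71.4 to 91.3, 84.8 and 88.5 CPM, also without overlap, but its log2 fold change of 0.36 ± 0.05 (SE, edgeR adjusted p = 3.1e-08) was under the fold threshold. NFKBIZ and BCL3 had log2 fold changes of -0.45 and 0.13, and neither was called. The members listed as inhibitors thus split, with the genes of A20 and IκBε called higher. NFKBIA and the genes of the atypical IκB proteins, NFKBIZ and BCL3, were not called.

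The next question was what PD-L1si does to the members when no IFNγ is added. In the A498-labelled libraries 0 members were called higher and 6 lower, against 2.87% and 5.60% of all genes tested. Counted by an unadjusted p under 0.05, there were 0 higher and 7 lower, and DESeq2 called 0 and 6. The median over the members was -0.83, against 0.00 over all genes, so the falls were more frequent here than in the background. This comparison shares its Cnsi libraries with the one before it, and each group of a set enters 2 of the 4 siRNA and IFNγ comparisons.

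TNFAIP3 stood at 13.3, 12.3 and 14.3 CPM in the A498-labelled PD-L1si libraries, against the Cnsi values of 52.1, 55.0 and 57.1. All PD-L1si libraries were far below all Cnsi libraries, at a ratio of 0.244 (log2 fold change -2.03 ± 0.06 (SE), edgeR adjusted p = 1.5e-23). RELB stood at 10.3, 10.7 and 9.79 CPM in PD-L1si, again below every Cnsi library, at a log2 fold change of -1.31 ± 0.07 (SE, edgeR adjusted p = 1.2e-17). NFKB2 stood at 54.7, 57.8 and 54.0 CPM, a log2 fold change of -1.03 ± 0.05 (SE, edgeR adjusted p = 8.5e-19), and did not overlap Cnsi. NFKBIA stood at 34.1, 34.9 and 33.2 CPM and NFKBIE at 16.6, 16.3 and 16.8 CPM in PD-L1si. Both lay below all Cnsi libraries, with ratios of 0.497 (edgeR adjusted p = 1.1e-17) and 0.501 (edgeR adjusted p = 2.1e-16). NFKB1 stood at 44.1, 49.2 and 46.8 CPM and fell by less, with a log2 fold change of -0.67 ± 0.05 (SE, edgeR adjusted p = 6.5e-14). RELA had a log2 fold change of -0.33 ± 0.05 (SE, edgeR adjusted p = 4.3e-06) and was not called, and REL, NFKBIZ and BCL3 had -0.16, 0.01 and 0.10. Of the 4 subunits besides REL, RELA had the smallest change and RELB the largest, and the gap between genes was not tested.

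Under IFNγ the same siRNA contrast called 0 members higher and 6 lower in the A498-labelled libraries, against 4.36% and 5.75% of all genes. By unadjusted p alone (under 0.05) there were 0 higher and 8 lower, and DESeq2 called 0 and 6. The median was -0.64, against 0.01 over all genes. TNFAIP3 stood at 71.7, 71.9 and 67.1 CPM in PD-L1si+IFNγ, against 212, 197 and 219 in Cnsi+IFNγ. The groups were far apart, at a ratio of 0.336 (log2 fold change -1.57 ± 0.05 (SE), edgeR adjusted p = 2.9e-23). NFKBIE stood at 37.4, 35.7 and 37.6 CPM, a log2 fold change of -0.83 ± 0.05 (SE, edgeR adjusted p = 9.9e-16), and NFKBIA at 56.9, 52.7 and 49.9 CPM, a log2 fold change of -0.73 ± 0.05 (SE, edgeR adjusted p = 3.3e-14). Neither overlapped Cnsi+IFNγ. Of the subunits, NFKB2 stood at 179, 163 and 166 CPM, RELA at 126, 116 and 127 and RELB at 42.7, 42.1 and 39.7, all below their Cnsi+IFNγ libraries. Their log2 fold changes were -0.73 ± 0.04, -0.58 ± 0.05 and -0.69 ± 0.05 (SE), with edgeR adjusted p of 1.3e-15, 2.4e-12 and 2.5e-13. NFKB1, at a log2 fold change of -0.45 ± 0.05 (SE), was not called, nor were NFKBIZ, REL and BCL3 at -0.38, -0.09 and 0.13. RELA was called here and NFKB1 was not, the reverse of the contrast without IFNγ, and the test of that difference gave -0.26 ± 0.07 (SE, edgeR adjusted p = 1.5e-02) for RELA and 0.22 ± 0.07 (SE, edgeR adjusted p = 2.6e-02) for NFKB1, neither past the fold threshold. The PD-L1si+IFNγ libraries of this set held its 2 lowest total counts, in a range of 19256316 to 23263758 that overlaps the ranges of Cnsi+IFNγ and PD-L1si, and the part of depth in these values was not tested.

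With IFNγ in PD-L1si cells of the A498-labelled set, 7 members were called higher and 1 lower, against 17.6% and 15.9% of all genes. The member called lower was NFKBIZ, at 137, 141 and 159 CPM in PD-L1si and 82.5, 79.0 and 81.7 in PD-L1si+IFNγ. Its IFNγ libraries all lay below those without the cytokine, at a log2 fold change of -0.84 ± 0.05 (SE, edgeR adjusted p = 2.6e-17). RELB had a ratio of 4.06 in PD-L1si cells and 2.66 in Cnsi cells, and TNFAIP3 had 5.25 and 3.82. NFKBIA, called in PD-L1si cells alone, had log2 fold changes of 0.65 there and 0.36 in Cnsi cells, and the test of that difference gave 0.28 ± 0.07 (SE, edgeR adjusted p = 8.4e-03), under the fold threshold.

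The siRNA by IFNγ interaction asks whether the IFNγ response differs between PD-L1si and Cnsi cells. In the A498-labelled libraries it called 1 member higher and 0 lower, against 1.81% and 0.645% of all genes. With no adjustment, at p under 0.05, there were 6 higher and 2 lower, and DESeq2 called 1 and 0. The called member was RELB, whose log2 fold change with IFNγ was larger by 0.61 ± 0.09 (SE, edgeR adjusted p = 3.8e-06) in PD-L1si cells. TNFAIP3 and NFKBIZ came next, at 0.46 ± 0.08 (SE, edgeR adjusted p = 1.2e-04) and -0.39 ± 0.07 (SE, edgeR adjusted p = 1.0e-04), neither past the fold threshold. A count of 1 of 10 is too small to be read against the background.

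The order of the 4 groups was the same for NFKB2, RELA, RELB, NFKBIE and TNFAIP3 in the A498-labelled libraries: PD-L1si lowest, then Cnsi, then PD-L1si+IFNγ, then Cnsi+IFNγ, with no overlap between neighbours. For TNFAIP3 the group means in that order were 13.3, 54.7, 70.3 and 209 CPM. NFKB1 followed the same order of means, but Cnsi and PD-L1si+IFNγ overlapped at 74.2 ± 0.892 and 77.1 ± 2.84 CPM. NFKBIA differed in that PD-L1si+IFNγ, at 53.2 ± 3.48 CPM, lay below Cnsi without the cytokine, at 68.5 ± 2.60. For the 5 genes named first, PD-L1si+IFNγ lay above Cnsi. NFKBIZ was lower in both IFNγ groups than in the groups without it, from 81.1 ± 1.81 CPM in PD-L1si+IFNγ through 105 ± 3.31 in Cnsi+IFNγ to 144 ± 4.56 in Cnsi and 146 ± 11.4 in PD-L1si, the last pair overlapping. REL ranged from 8.88 ± 1.18 CPM in PD-L1si+IFNγ through 9.39 in Cnsi+IFNγ and 10.8 in PD-L1si to 12.1 ± 0.682 in Cnsi, with overlap between the IFNγ groups and between the groups without it. BCL3 stayed between 38.0 ± 0.481 CPM in Cnsi and 45.2 ± 5.94 in PD-L1si+IFNγ, with PD-L1si and Cnsi+IFNγ between them, and Cnsi+IFNγ overlapped both of its neighbours.

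**Figure D3:**
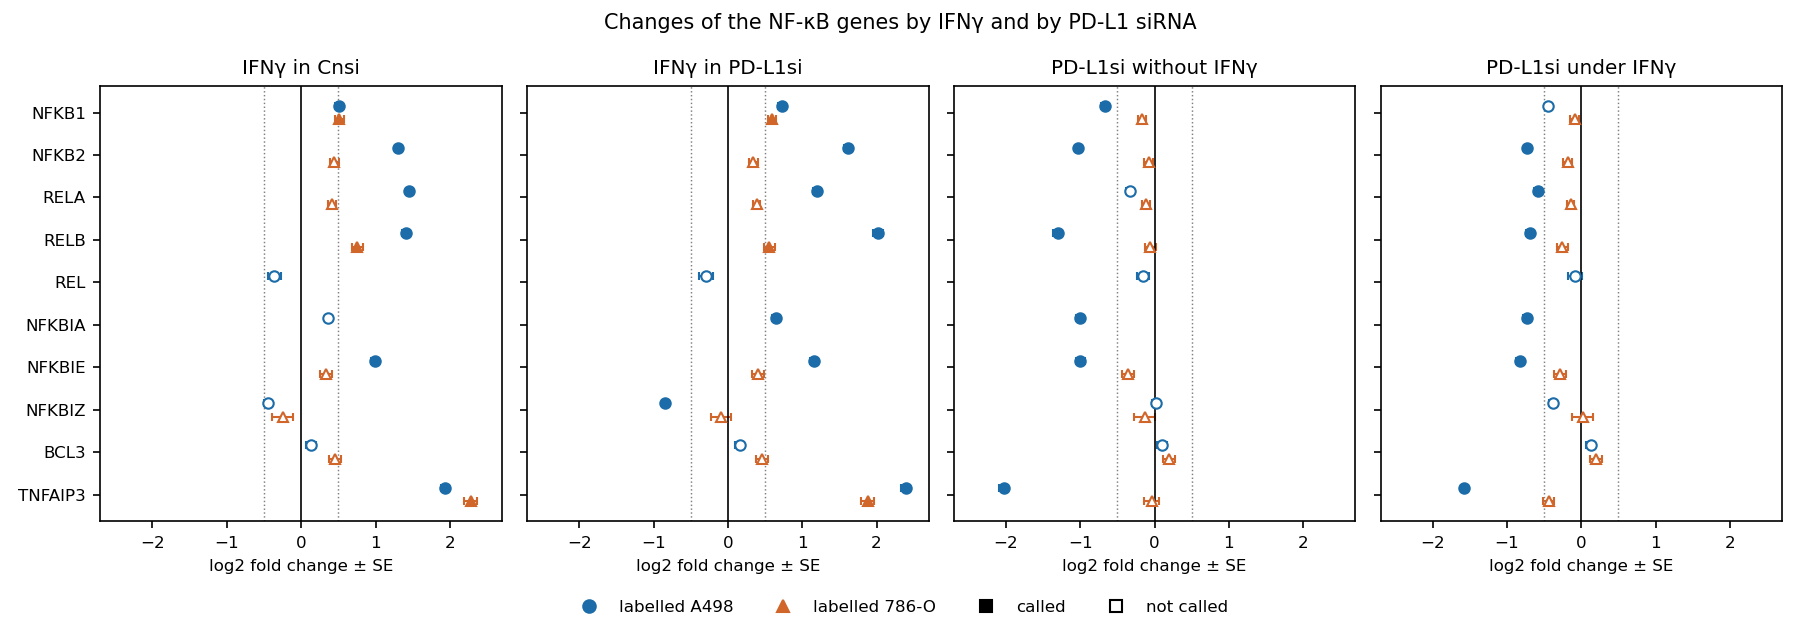
Log2 fold change ± SE of each member in the IFNγ and PD-L1si comparisons, with filled symbols for called genes. For TNFAIP3 the PD-L1si values without IFNγ are -2.03 in the A498-labelled and -0.04 in the 786-O-labelled libraries.

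In the 786-O-labelled libraries IFNγ in Cnsi cells called 3 of the 8 measured members higher and 0 lower, against 11.1% and 7.39% of 21209 genes tested. At an unadjusted p under 0.05 there were 7 higher and 0 lower, and DESeq2 called 3 and 0. The median was 0.45, against 0.00 over all genes, so calls on the higher side were again more frequent among the members than in the background. TNFAIP3 stood at 13.3, 12.1 and 12.3 CPM in Cnsi and 51.3, 65.9 and 66.0 in Cnsi+IFNγ. Every IFNγ library was far above every Cnsi library, at a ratio of 4.86 (log2 fold change 2.28 ± 0.09 (SE), edgeR adjusted p = 2.0e-15). RELB went from 20.0, 19.3 and 20.9 to 30.8, 38.4 and 32.4 CPM without overlap, a log2 fold change of 0.75 ± 0.07 (SE, edgeR adjusted p = 5.8e-09). NFKB1 went from 55.7, 54.3 and 60.4 to 74.2, 83.8 and 85.2 CPM, also without overlap, at a log2 fold change of 0.51 ± 0.06 (SE, edgeR adjusted p = 5.6e-08). That call sits at the threshold: the log2 fold change was 0.50 without replicate 1 and 0.48 without replicate 2 of Cnsi, 0.49 without replicate 2 and 0.48 without replicate 3 of Cnsi+IFNγ, and 0.49 without replicate 1 of PD-L1si, and in each case NFKB1 was not called. Nor was it with no filter on low counts (0.49) or with protein-coding genes alone (0.50). Replicate 1 of Cnsi+IFNγ was the lowest of its group for NFKB1, NFKB2, RELA, RELB, NFKBIE, BCL3 and TNFAIP3, and without it 5 members were called higher, with NFKB2 at 0.54 and BCL3 at 0.53. With all libraries, NFKB2, RELA, NFKBIE and BCL3 had log2 fold changes of 0.44, 0.41, 0.33 and 0.45, below the fold threshold, and NFKBIZ had -0.25.

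In PD-L1si cells of the 786-O-labelled set IFNγ also called 3 members higher and 0 lower, against 11.0% and 7.45% of all genes. Counted by an unadjusted p under 0.05, there were 7 higher and 0 lower, and DESeq2 called 3 and 0. TNFAIP3 reached 44.9, 45.8 and 44.4 CPM from 12.7, 11.0 and 12.9, without overlap and at a log2 fold change of 1.88 ± 0.09 (SE, edgeR adjusted p = 8.4e-14). The others were NFKB1 at 0.59 ± 0.06 (SE, edgeR adjusted p = 5.0e-09) and RELB at 0.56 ± 0.08 (SE, edgeR adjusted p = 1.2e-06). RELB stood at 0.50 and was not called without replicate 2 of PD-L1si.

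PD-L1si without IFNγ called 0 of the 8 members in either direction in the 786-O-labelled libraries, against 1.19% higher and 1.63% lower among all genes. By unadjusted p alone (under 0.05) there were 1 higher and 3 lower with edgeR, and DESeq2 called 0. Against so low a background, 0 of 8 says nothing particular about the members. Replicate 1 of PD-L1si stood apart, in that its 10 most abundant genes held 9.66% of its counts, against 6.97% and 7.28% in replicates 2 and 3. With any 1 library left out, 0 members were called lower. TNFAIP3 stood at 12.7, 11.0 and 12.9 CPM in PD-L1si, overlapping its Cnsi values, at a log2 fold change of -0.04 ± 0.10 (SE). The lowest value was that of NFKBIE, at 13.5, 15.4 and 14.3 CPM against 19.3, 17.5 and 18.4 in Cnsi. These groups did not overlap, but the log2 fold change of -0.35 ± 0.08 (SE, edgeR adjusted p = 3.5e-03) was not past the fold threshold.

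Under IFNγ, PD-L1si again called 0 members in either direction in the 786-O-labelled libraries, against 1.29% higher and 1.74% lower among all genes. With no adjustment, at p under 0.05, there were 1 higher and 5 lower with edgeR, and DESeq2 called 0. TNFAIP3, at 44.9, 45.8 and 44.4 CPM, lay below all 3 Cnsi+IFNγ libraries, with a log2 fold change of -0.44 ± 0.08 (SE, edgeR adjusted p = 4.4e-04). Without replicate 1 of Cnsi+IFNγ it was called lower at -0.55. The interaction called 0 members higher and 0 lower, against 0.0377% and 0.0613% of all genes, and both counts of 0 sit near their background. Here 0 members were higher and 1 lower at an unadjusted p under 0.05 with edgeR, DESeq2 called 0, and without that same library TNFAIP3 was called lower at -0.51. Neighbouring groups in the order of TNFAIP3 levels overlapped for PD-L1si and Cnsi alone, while for NFKBIZ all neighbours overlapped, between 29.5 ± 3.29 CPM in Cnsi+IFNγ and 35.0 ± 4.06 in Cnsi. NFKB1, NFKB2, RELA, RELB and TNFAIP3 had the same order of group means as in the A498-labelled set, with PD-L1si+IFNγ and Cnsi+IFNγ overlapping for NFKB1 and NFKB2 and PD-L1si and Cnsi overlapping for RELB. NFKBIE kept that order as well, with Cnsi overlapping PD-L1si+IFNγ. The means of BCL3 ran from 48.6 ± 1.46 CPM in Cnsi through PD-L1si and Cnsi+IFNγ to 76.3 ± 4.38 in PD-L1si+IFNγ, and PD-L1si overlapped both of its neighbours.

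Whether the sets of libraries differ was tested directly, as the log2 fold change in the 786-O-labelled minus that in the A498-labelled libraries, in 1 model of 24 libraries and 17999 genes. For IFNγ in Cnsi cells, 0 of 8 members were called higher and 4 lower, against 15.1% and 13.2% of all genes. At an unadjusted p under 0.05 there were 2 higher and 4 lower, and DESeq2 called 0 and 4. RELA had the largest difference, -1.05 ± 0.07 (SE, edgeR adjusted p = 8.6e-16), followed by NFKB2 at -0.87 ± 0.08 (SE, edgeR adjusted p = 1.4e-12). NFKBIE differed by -0.67 ± 0.09 (SE, edgeR adjusted p = 5.3e-08) and RELB by -0.66 ± 0.09 (SE, edgeR adjusted p = 8.8e-08). In these 4 genes IFNγ had the smaller effect in the 786-O-labelled libraries. NFKB1 and TNFAIP3 were not called, at 0.00 ± 0.07 and 0.34 ± 0.10 (SE).

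For PD-L1si under IFNγ the difference between sets called 3 of 8 members higher, meaning a smaller fall in the 786-O-labelled libraries, and 0 lower, against 2.96% and 2.64% of all genes. Counted by an unadjusted p under 0.05, there were 7 higher and 0 lower, and DESeq2 called 3 and 0. TNFAIP3 differed by 1.15 ± 0.09 (SE, edgeR adjusted p = 3.0e-11), NFKBIE by 0.56 ± 0.09 (SE, edgeR adjusted p = 1.4e-05) and NFKB2 by 0.56 ± 0.08 (SE, edgeR adjusted p = 7.0e-07). Without replicate 1 of the 786-O-labelled Cnsi+IFNγ group TNFAIP3 alone was called, with NFKB2 at 0.46 and NFKBIE at 0.47, and without replicate 2 of that group RELB was called as well, at 0.55. CD274 itself fell by more in the A498-labelled libraries, with a difference of 1.87 ± 0.09 (SE, edgeR adjusted p = 3.1e-18) under IFNγ and of 1.06 ± 0.24 (SE, edgeR adjusted p = 1.9e-03) without it, so the strength of silencing moved with the set and its part in the PD-L1si differences was not tested.

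The same difference without IFNγ, and the 2 differences given after it, were chosen after the data were seen. Without IFNγ it called 5 of 8 members higher and 0 lower, against 3.23% and 1.25% of all genes, a share well above the background. By unadjusted p alone (under 0.05) there were 6 higher and 0 lower, and DESeq2 called 4 and 0. TNFAIP3 differed by 2.00 ± 0.12 (SE, edgeR adjusted p = 1.0e-14), RELB by 1.25 ± 0.10 (SE, edgeR adjusted p = 3.4e-12) and NFKB2 by 0.96 ± 0.08 (SE, edgeR adjusted p = 4.1e-12). All 3 had fallen in the A498-labelled libraries and were not called in the others. NFKBIE differed by 0.65 ± 0.10 (SE, edgeR adjusted p = 3.4e-06) and NFKB1 by 0.51 ± 0.07 (SE, edgeR adjusted p = 3.2e-06). NFKB1 was not called with DESeq2 (0.49), RLE scaling (0.49) or protein-coding genes alone (0.50), and was not called when replicate 2 of Cnsi (0.50), replicate 1 (0.45) or replicate 3 (0.49) of PD-L1si was left out of the A498-labelled set. The same held without replicate 1 (0.49) or 2 (0.46) of Cnsi or replicate 2 (0.50) or 3 (0.48) of PD-L1si in the 786-O-labelled set.

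For IFNγ in PD-L1si cells the difference between sets called 1 of 8 members higher and 5 lower, against 13.1% and 12.8% of all genes, so calls on the lower side were more frequent among the members. Taken at an unadjusted p under 0.05 there were 2 higher and 5 lower, and DESeq2 called 1 and 5. RELB differed by -1.47 ± 0.10 (SE, edgeR adjusted p = 1.2e-15) and NFKB2 by -1.27 ± 0.08 (SE, edgeR adjusted p = 5.8e-17). RELA followed at -0.81 ± 0.07 (SE, edgeR adjusted p = 2.2e-12) and NFKBIE at -0.76 ± 0.10 (SE, edgeR adjusted p = 2.1e-08). These 4 were also lower for IFNγ in Cnsi cells. NFKBIZ, the member called higher, differed by 0.75 ± 0.15 (SE, edgeR adjusted p = 3.4e-04). TNFAIP3 differed by -0.51 ± 0.11 (SE, edgeR adjusted p = 3.0e-04), of the opposite sign to its uncalled difference in Cnsi cells. It was not called when replicate 2 of PD-L1si (-0.46), replicate 1 (-0.50) or 2 (-0.50) of PD-L1si+IFNγ was left out of the A498-labelled set, or replicate 1 (-0.49) or 3 (-0.47) of PD-L1si out of the 786-O-labelled set.

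The interaction itself differed between sets in 2 of 8 members, both lower, with 0 higher, against 0.411% called higher and 1.13% called lower among all genes. Taken at an unadjusted p under 0.05 there were 2 higher and 3 lower with edgeR, and DESeq2 called 1 and 2. TNFAIP3 differed by -0.85 ± 0.15 (SE, edgeR adjusted p = 6.5e-04) and RELB by -0.80 ± 0.14 (SE, edgeR adjusted p = 1.9e-04). Within the sets, the interaction of TNFAIP3 was 0.46 in the A498-labelled and -0.40 in the 786-O-labelled libraries, and that of RELB 0.61 and -0.20, of which RELB in the A498-labelled set alone was called. NFKBIZ was not called at 0.55 ± 0.21 (SE, edgeR adjusted p = 2.1e-01), but was called higher with DESeq2 (0.58), with no filter on low counts (0.56) and without replicate 1 of the 786-O-labelled PD-L1si group (0.68).

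**Figure D4:**
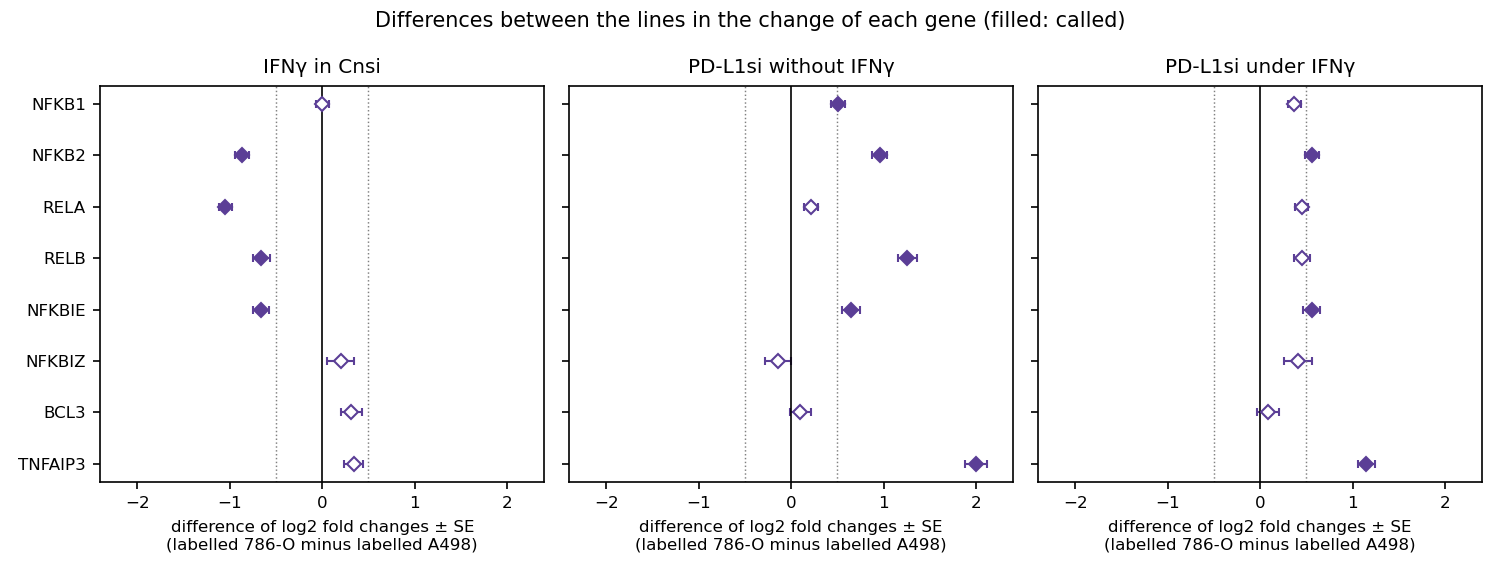
Difference of log2 fold changes ± SE, 786-O-labelled minus A498-labelled, for the 8 members measured in both sets, with filled symbols for called differences, for IFNγ in Cnsi cells and for PD-L1si under and without IFNγ. IFNγ differences run down to -1.05 for RELA, and PD-L1si differences up to 2.00 for TNFAIP3.

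Other genes of the pathway came from fixed lists of 18 upstream kinases and adaptors, 17 other restraints and 26 textbook target genes. The lists were compiled by hand with earlier results of these data known, so their counts and medians are a description and not an independent test. In the A498-labelled libraries all 18 upstream genes were tested, and IFNγ in Cnsi cells called 9 higher and 0 lower, with a median of 0.44, where 18.2% of all genes were called higher. The kinase of the noncanonical arm, MAP3K14, went from 102 ± 4.38 to 234 ± 6.23 CPM, a log2 fold change of 1.20 ± 0.05 (SE, edgeR adjusted p = 4.0e-20). BIRC2, TRAF5 and MYD88 followed at 0.97, 0.91 and 0.87. PD-L1si without IFNγ called 0 of the 18 higher and 1 lower, IKBKE, at -0.71, and 2 were lower without replicate 2 of PD-L1si. Under IFNγ PD-L1si called BIRC2 (-0.69) and IKBKE (-0.51) lower. Among all genes 5.60% and 5.75% were called lower, so the first count sits at the background and the second is 1 gene away from it. IKBKE was not called without replicate 3 of Cnsi+IFNγ (-0.50) or replicate 2 of PD-L1si+IFNγ (-0.47), and without the latter 1 upstream gene was called higher.

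Of the 17 other restraints 15 were tested in the A498-labelled libraries, where IFNγ in Cnsi cells called 8 higher and 0 lower, against 18.2% and 18.5% of all genes. CYLD, a deubiquitinase that acts on the same kinase complex as A20, had the largest rise, from 51.2 ± 1.90 to 232 ± 5.43 CPM (log2 fold change 2.18 ± 0.05 (SE), edgeR adjusted p = 2.6e-29). TNIP2, NFKBIB and PDLIM2 followed at 0.77, 0.77 and 0.70. PD-L1si called 3 lower and 0 higher both without and with IFNγ: ZC3H12A at -1.15 and -1.09, NFKBID at -1.02 and -0.99, and TNIP1 at -0.65 and -0.62. These contrasts use different libraries, and 5.60% and 5.75% of all genes were called lower in them.

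Of the 26 target genes, SOD2 had no matching gene, and 24 were tested in the A498-labelled libraries. PD-L1si without IFNγ called 20 lower and 0 higher, at a median of -1.40, and PD-L1si under IFNγ called 18 lower and 0 higher, at a median of -0.91, where 5.60% and 5.75% of all genes were called lower. Both medians lie far from those of all genes given above. IL6 stood at 11.1 ± 0.488 CPM in Cnsi, 75.6 ± 4.23 in Cnsi+IFNγ, 2.07 ± 0.0317 in PD-L1si and 27.0 ± 0.845 in PD-L1si+IFNγ, with a log2 fold change of -2.42 ± 0.11 (SE, edgeR adjusted p = 1.5e-19) for PD-L1si without IFNγ. Its levels follow the group order of TNFAIP3. CXCL8 stood at 40.0 ± 2.59, 16.0 ± 1.55, 7.67 ± 0.655 and 6.42 ± 0.262 CPM in the same order of groups and fell with PD-L1si without IFNγ, at a log2 fold change of -2.39 ± 0.08 (SE, edgeR adjusted p = 3.9e-23). The largest falls were those of the low-level genes CCL20 and TNF, at -3.44 and -2.58 without IFNγ, from 1.41 and 1.51 CPM in Cnsi. With IFNγ in Cnsi cells 11 targets were called higher and 5 lower, where 18.2% and 18.5% of all genes were called, so the lower count sits near the background. CXCL2 (3.18), TRAF1 (3.05), IL6 (2.76) and ICAM1 (2.24) rose most, and CSF2 fell most, at -2.08. The count of 5 was 3 without replicate 3 of Cnsi+IFNγ and with DESeq2. The interaction called 6 targets higher and 0 lower, against 1.81% and 0.645% of all genes, or 1 lower without replicate 2 of Cnsi+IFNγ, with the largest values for CXCL1 (1.16), CXCL8 (1.07) and IL6 (0.94).

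**Figure D5:**
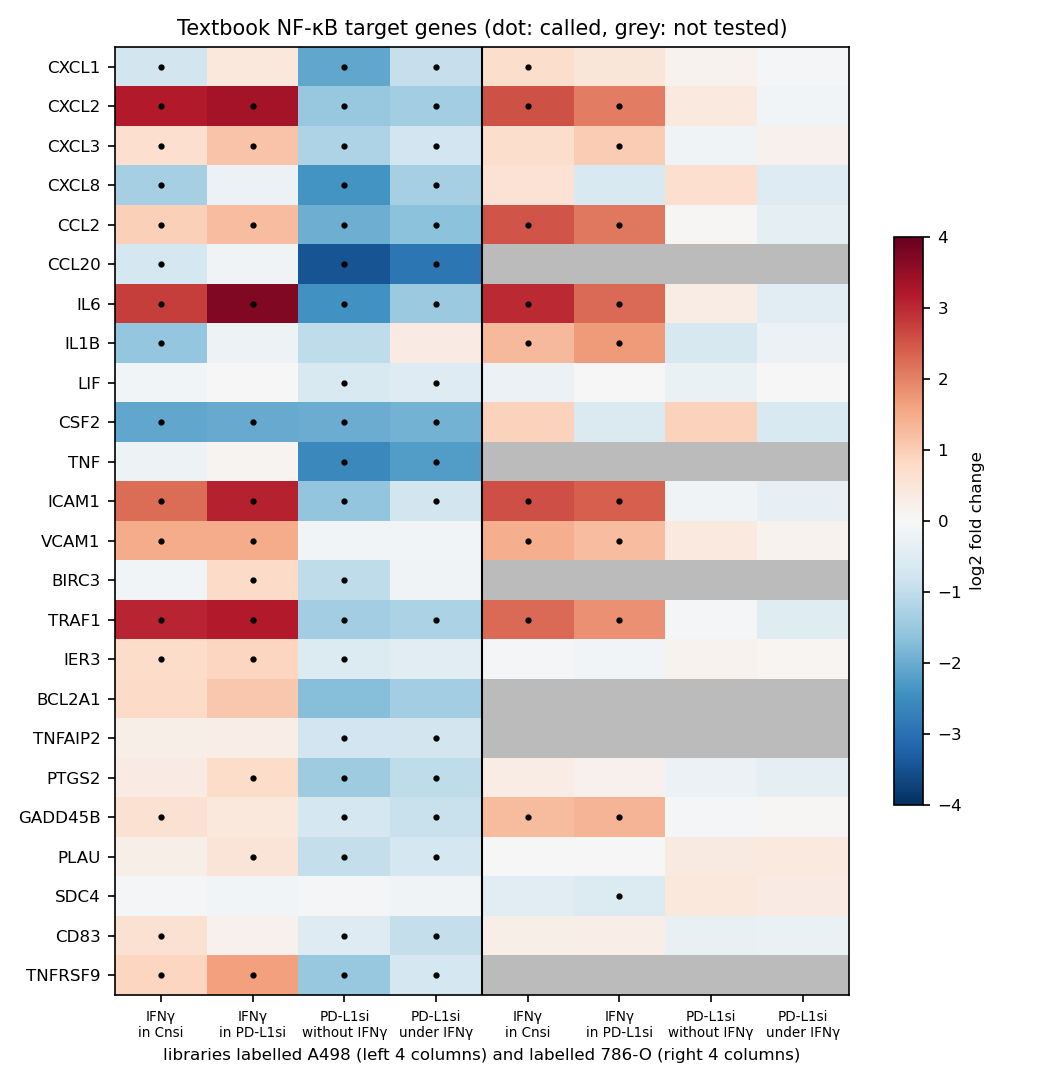
Log2 fold changes of the textbook target genes in 4 comparisons in each set of libraries, as colours, with a dot for called genes and grey for genes not tested. With PD-L1si without IFNγ 20 genes are called lower in the A498-labelled and 0 in the 786-O-labelled libraries by edgeR, where 3 are lower at an unadjusted p under 0.05 and DESeq2 called 0.

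In the 786-O-labelled libraries 18 targets were tested, and IFNγ in Cnsi cells called 9 higher and 0 lower, against 11.1% and 7.39% of all genes, led by IL6 (2.97), ICAM1 (2.57), CXCL2 (2.54) and CCL2 (2.52), or 1 lower without replicate 1 of Cnsi+IFNγ. PD-L1si called 0 targets in either direction with or without IFNγ by edgeR, at medians of -0.17 and 0.09, where 1.29% and 1.74% of all genes were called higher and lower under IFNγ and 1.19% and 1.63% without it. With no adjustment, at p under 0.05, there were 2 higher and 5 lower under IFNγ and 5 higher and 3 lower without it, and DESeq2 called 0. Without replicate 1 of Cnsi+IFNγ 3 were called lower under IFNγ. Genes at 0 throughout these libraries, and so not measured, were LTB, BIRC3, TNFAIP2 and TNFRSF9 among the targets, TNIP1, CYLD, ITCH and TRAF3 among the restraints and MYD88 and IRAK4 upstream. The direct test of the difference between sets called 13 of 18 targets higher and 0 lower for PD-L1si without IFNγ and 10 and 0 under IFNγ, with medians of 1.26 and 0.80, where 3.23% and 2.96% of all genes were called higher. CXCL8 (3.05) and IL6 (2.73) were among the largest without IFNγ, although CXCL8 averaged just 0.403 CPM in Cnsi of the 786-O-labelled set. Of the 16 upstream genes tested there IFNγ in Cnsi cells called IKBKE alone, at 1.06 ± 0.09 (SE, edgeR adjusted p = 1.1e-08), where 11.1% of all genes were called higher, so this count sits near the background. At an unadjusted p under 0.05 there were 11 higher and 0 lower, with a median of 0.28 against 0.00 for all genes. Of the 13 restraints tested there it called 4 higher, led by TNIP3 (1.01) and ZC3H12A (0.91), and 1 lower, PDLIM2 (-0.56), against 11.1% and 7.39%, or 2 lower without replicate 3 of Cnsi.

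Likeness of pattern was measured as Pearson's r of log2(CPM + 1) over the 12 libraries of a set, among 9227 protein-coding genes in the A498-labelled and 8363 in the 786-O-labelled libraries with a mean of at least 10 CPM. It is a description with no test, and r over 4 groups of 3 mostly reflects the group means. TNFAIP3 in the A498-labelled libraries was most like CHST11 (r = 0.998) and NECAP2 (0.997), and the same genes were nearest to NFKBIE (0.996 and 0.996). NFKB2 was most like IL6 (0.998) and CDCP1 (0.998). RELA was most like SLC25A22 (0.998) and CPNE1 (0.998). SLC25A22 was also among the nearest to RELA in the 786-O-labelled libraries (0.990), after TRIM47 (0.991). RELB was nearest to SH2B3 (0.998) and RNF24 (0.997), and NFKBIA to LAMB3 (0.995) and DNAJB12 (0.994). The least well matched were REL, nearest to CSNK2A3 (0.925), and BCL3, nearest to IFRD2 (0.936). In the 786-O-labelled libraries TNFAIP3 was nearest to SNTB2 (0.998) and SLC9A9 (0.996), neither of them a gene named for the A498-labelled set.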

How the data were processed

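RNA was measured in 24 libraries of 2 cell lines. The authors trimmed reads with Trimmomatic 0.36.6, aligned them to GRCh38 with HISAT2 2.1.0 and counted them on genes with featureCounts 1.6.3, and the deposited values are raw counts, with no normalization. Members and gene lists were chosen with earlier results of these data known. Genes with at least 10 counts summed over the 3 libraries of a group were tested with the edgeR 4.0.16 robust quasi-likelihood F-test after TMM scaling (R 4.3.3), 1 mean per group and no pairing, with Benjamini-Hochberg adjustment over all genes tested. The test was also run on simulated sets of 200 genes, whose outcome is not given here and on which no result rests. A gene was called at an adjusted p under 0.05 and an absolute log2 fold change over 0.5. Sets of libraries were compared in 1 model of the genes tested in both. RPKM used exon-union lengths from GENCODE 44. Named were all members, CD274, IRF1, up to 4 genes per list with the largest called rise and fall, and the 2 genes most like a member. Alternatives were DESeq2 1.42.0, RLE scaling, other filters, protein-coding genes alone, the newer edgeR fit, other fold thresholds, a replicate block, other lengths and leaving out each library. Depth was 19256316 to 30350461 counts per library.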

Additional observations from a re-analysis of the deposited data

Results flagged for a closer look

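The results below are members whose change differed between treatments or sets of libraries by a test of the difference itself. Values are differences of log2 fold changes with edgeR adjusted p, and no explanation was weighed. Within the A498-labelled libraries RELB had a larger log2 fold change with IFNγ in PD-L1si than in Cnsi cells, by 0.61 (adjusted p = 3.8e-06). Its mean level went from 10.2 to 41.5 CPM in PD-L1si cells and from 25.3 to 67.2 CPM in Cnsi cells. The larger response is thus one of ratio, from a lower start to a lower end.

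Between sets, as 786-O-labelled minus A498-labelled, the IFNγ response in Cnsi cells differed by -0.87 for NFKB2 (adjusted p = 1.4e-12), -1.05 for RELA (adjusted p = 8.6e-16), -0.66 for RELB (adjusted p = 8.8e-08) and -0.67 for NFKBIE (adjusted p = 5.3e-08). The PD-L1si effect under IFNγ differed by 0.56 for NFKB2 (adjusted p = 7.0e-07), 0.56 for NFKBIE (adjusted p = 1.4e-05) and 1.15 for TNFAIP3 (adjusted p = 3.0e-11). NFKB2 and NFKBIE were not called, at 0.46 and 0.47, without replicate 1 of the 786-O-labelled Cnsi+IFNγ group. Without IFNγ, in the comparison chosen after the data were seen, it differed by 0.51 for NFKB1 (adjusted p = 3.2e-06), 0.96 for NFKB2 (adjusted p = 4.1e-12), 1.25 for RELB (adjusted p = 3.4e-12), 0.65 for NFKBIE (adjusted p = 3.4e-06) and 2.00 for TNFAIP3 (adjusted p = 1.0e-14). The NFKB1 difference was not called without any 1 of 7 libraries, at 0.45 to 0.50. Also chosen after the data were seen, the IFNγ response in PD-L1si cells differed by -1.27 for NFKB2 (adjusted p = 5.8e-17), -0.81 for RELA (adjusted p = 2.2e-12), -1.47 for RELB (adjusted p = 1.2e-15), -0.76 for NFKBIE (adjusted p = 2.1e-08), 0.75 for NFKBIZ (adjusted p = 3.4e-04) and -0.51 for TNFAIP3 (adjusted p = 3.0e-04). The last was not called without any 1 of 5 libraries, at -0.50 to -0.46. The interaction, likewise compared between sets after the data were seen, differed by -0.80 for RELB (adjusted p = 1.9e-04) and -0.85 for TNFAIP3 (adjusted p = 6.5e-04). Line and sequencing instrument cannot be told apart in these differences. Silencing of CD274 also differed between sets, by 1.87 (adjusted p = 3.1e-18) under IFNγ and 1.06 (adjusted p = 1.9e-03) without it, and its part in the differences in PD-L1si effects was not tested.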

How the results depend on the processing

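The 30 counts of members called, in 15 comparisons and both directions, stayed within 1.5 times their values with DESeq2, RLE scaling, either other filter, protein-coding genes alone, the newer edgeR fit and a replicate block, under which IFNγ in Cnsi cells called 6 members higher in the A498-labelled libraries. The exception was the interaction between sets, with 1 higher (from 0) with DESeq2 and with no filter. Libraries with the same replicate number were not paired, since their residuals correlated at a mean of 0.0586 in the A498-labelled and 0.0296 in the 786-O-labelled set. Among 3210 alternative values for single members, 3111 stayed on the same side of the threshold (47 of these, all uncalled, changed sign), 43 were newly called, 56 were no longer called and 0 called values reversed. Without a fold threshold, A498-labelled counts became 2 lower (from 0) for IFNγ in Cnsi cells, 2 lower (from 1) for IFNγ in PD-L1si cells, and 5 higher (from 1) and 2 lower (from 0) for the interaction. The 786-O-labelled counts became 7 higher (from 3) for IFNγ in Cnsi and in PD-L1si cells, 4 lower (from 0) for PD-L1si under IFNγ and 1 lower (from 0) without it, and the differences between sets 2 higher (from 0) for IFNγ in Cnsi cells, 2 higher (from 1) for IFNγ in PD-L1si cells and 6 higher (from 3) for PD-L1si under IFNγ. With a log2 fold change over 1, A498-labelled counts became 0 lower (from 1) for IFNγ in PD-L1si cells, 1 lower (from 6) for PD-L1si under IFNγ and 0 higher (from 1) for the interaction. The 786-O-labelled counts became 1 higher (from 3) for IFNγ in both siRNA groups, and the differences 1 lower (from 4) for IFNγ in Cnsi cells, 0 higher (from 1) and 2 lower (from 5) for IFNγ in PD-L1si cells, 0 lower (from 2) for the interaction, 1 higher (from 3) for PD-L1si under IFNγ and 2 higher (from 5) without it. These moves follow from the threshold itself. Leaving out 1 library at a time, the 786-O-labelled counts ran from 2 to 5 higher for IFNγ in Cnsi cells, 0 to 1 lower for PD-L1si under IFNγ and 0 to 1 lower for the interaction, and the difference for PD-L1si under IFNγ from 1 to 4 higher and that for the interaction from 0 to 1 higher. The highest of the first 3 and the lowest of the fourth came without replicate 1 of the 786-O-labelled Cnsi+IFNγ group, the highest of the last without replicate 1 of the 786-O-labelled PD-L1si group, and the cause was not tested. Both libraries stood apart within their groups. Chi-square per degree of freedom between replicates was 16.4 and 12.1 for pairs with the first library, against 5.18 for the remaining pair. For pairs with the second it was 24.3 and 14.3, against 5.27. Replicate 3 of 786-O-labelled Cnsi also stood apart, at 10.1 and 11.6 against 1.98. Total counts of 19256316 to 30350461 per library leave few counts behind low-level genes such as CCL20, at 1.41 CPM in A498-labelled Cnsi.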
